A study of Rattus norvegicus with 18 samples.

Results

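The genes described here are 45 markers and regulators of blood vessel cells, listed by name: 35 endothelial genes, 5 genes of the blood-brain barrier and 5 genes of mural cells. Their transcripts were compared between O4+ cells and A2B5+ cells, both sorted by flow cytometry from dissociated brain of male rats at postnatal day 7. Gene levels were read from Affymetrix arrays, and members were found as probe sets annotated with exactly 1 of these symbols. Such a probe set existed for 42 of the 45, out of 11982 genes tested in all, and Cdh5, Cd34 and Itm2a had none. The O4 antibody binds sulfatide on late oligodendrocyte progenitors and oligodendrocytes, and the A2B5 antibody binds gangliosides on glial progenitors and some neurons. Each of the 4 O4+ and 5 A2B5+ replicates pools a litter of 10 pups, and each was hybridised to 2 array types, called A and B here. No treatment or genetic change is given in the labels, and the labels do not say whether the populations shared litters. Neither antibody selects vascular cells.

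Brain capillaries are tubes of endothelial cells wrapped by pericytes, and arterioles carry smooth muscle. These wrapping cells are together called mural cells. Endothelial cells depend on VEGF and angiopoietin receptors and on transcription factors of the Ets, SoxF and Fox families. In the brain they seal their contacts with tight junctions and carry pumps and nutrient transporters, which together form the blood-brain barrier.

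Endothelial and barrier genes were lower in O4+ cells almost as a whole, while none of the mural genes passed the test. In O4+ cells 32 of the 42 genes were lower and 2 higher with an adjusted p under 0.05 (limma, Benjamini-Hochberg over all genes tested), where 17.8% of all genes were called lower and 28.8% higher. The members called lower were 27 of 32 endothelial genes, with differences between -1.05 and -3.85 on the log2 scale (2.07-fold to 14.4-fold lower), and 5 of 5 barrier genes. The median log2 difference, O4+ minus A2B5+, was -2.11 over endothelial genes, -1.62 over barrier genes and 0.04 over mural genes, beside 0.14 over all genes. In 31 members every O4+ value lay below every A2B5+ value, and in 2 every O4+ value lay above, beside 13.5% and 27.6% of all genes. Fewer vascular cells in the O4+ sort and less of these transcripts per cell cannot be told apart in such bulk samples.

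**Figure D1:**
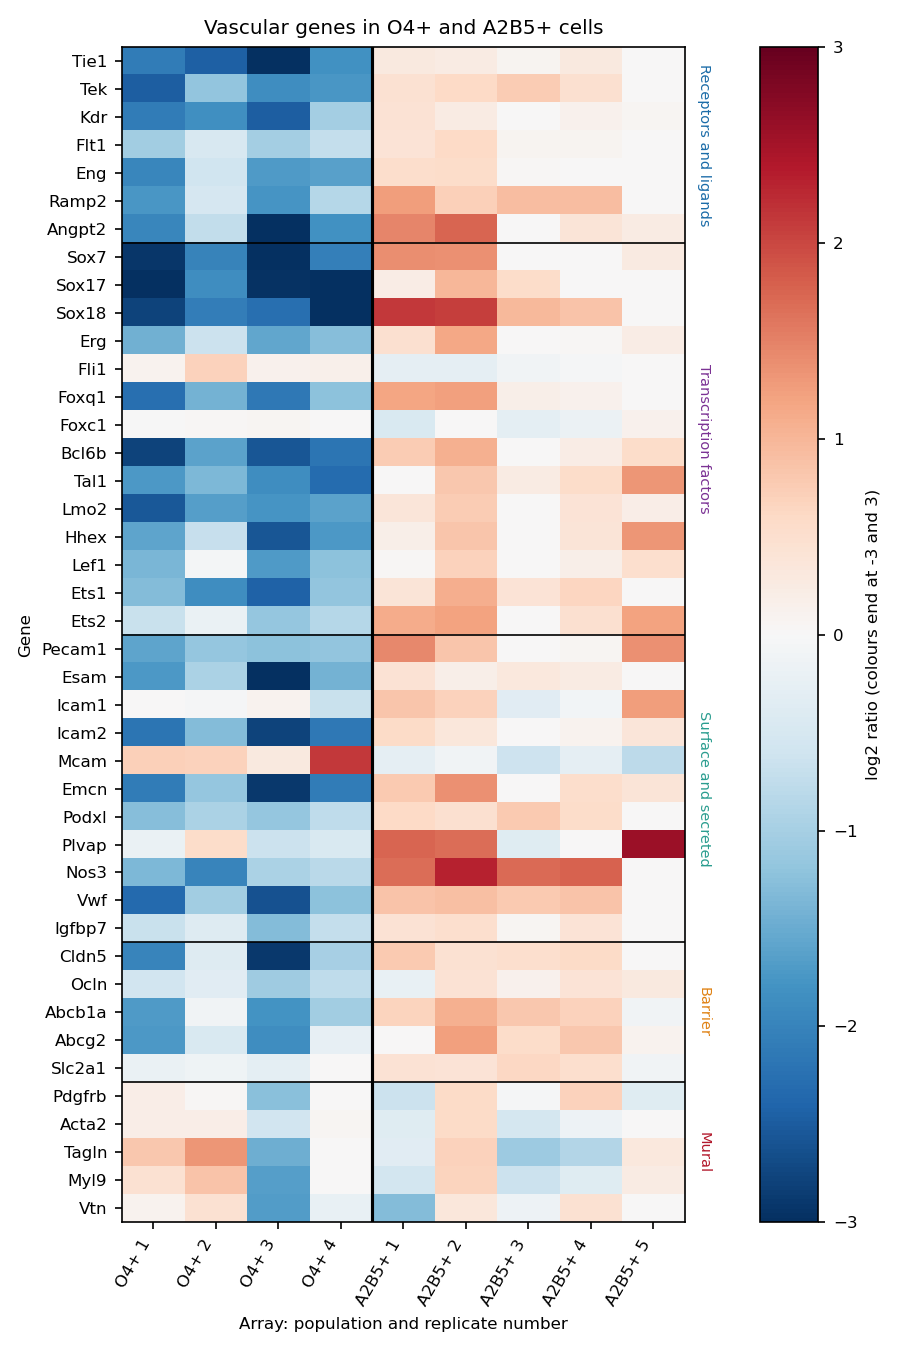
Log2 ratio of the 42 measured vascular genes (rows, grouped by role) on each array (columns, 4 O4+ then 5 A2B5+ replicates), with blue below and red above a ratio of 1. Nearly all endothelial and barrier rows are blue on the O4+ arrays and white to red on the A2B5+ arrays, while mural rows vary within both populations.

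The values are ratios per probe set, as deposited, with most probe sets centred so that the median of the 9 arrays of a type is exactly 1. A ratio therefore compares arrays for 1 probe set and says nothing of one gene against another. Since A2B5+ cells make up 5 of the 9 arrays, the array at exactly 1 is usually an A2B5+ array. Of the 59 tested member probe sets, 40 were called lower and 1 higher (limma, per array type), and none of the 40 had an O4+ residual SD under 0.1. Of all probe sets, 14.7% were called lower and 32.5% higher on type A, and 13.8% and 9.93% on type B. By comparison, probe sets with a median ratio under 1 had a median residual SD of 0.065 on type A and 0.061 on type B, with 95th percentiles of 0.36 and 0.33. All 40 probe sets called lower had a residual SD over the 9 arrays above these percentiles. That spread includes the difference between the populations, so for probe sets called lower it is no separate support. In 7 of the 40 the O4+ residual SD lay below these percentiles, down to 0.116. The residual SD is the spread around the shared pattern of those low probe sets. That pattern was itself 0.30 higher in O4+ than in A2B5+ arrays on type A, and 0.05 higher on type B. Control probe sets also averaged higher in O4+ arrays on type A, with mean log2 ratios of -0.02, 0.49, -0.08 and -0.01 in O4+ replicates 1 to 4 against -0.56 to -0.17 in A2B5+ arrays. With arrays centred on their medians 32 members were called lower and 1 higher, and with quantile normalization also 32 and 1. Beyond these alternatives, the part of these shifts in the results was not tested. Of the 40 probe sets called lower, 38 had every O4+ ratio below 1. These passed the filter for testing, a ratio of 1 or more on 4 or more of 9 arrays, only through A2B5+ arrays. With no filter, 31 member genes were called lower.

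Promoter sequences are shown for 4 members, chosen after their values were seen, that fell without overlap and hold the letters AGGAAG, a common form of the core that Ets factors bind. These are the 250 bases before the start of each gene, from RefSeq on build GRCr8, written 5′ to 3′ on the strand of the gene, with AGGAAG or its reverse complement CTTCCT in capitals.
Tie1 promoter, chr5:137304982-137305231, minus strand: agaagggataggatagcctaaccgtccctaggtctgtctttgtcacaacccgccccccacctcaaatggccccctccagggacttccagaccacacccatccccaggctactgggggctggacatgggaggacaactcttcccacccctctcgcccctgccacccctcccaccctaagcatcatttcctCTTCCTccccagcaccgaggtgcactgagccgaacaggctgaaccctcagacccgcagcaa
Eng promoter, chr3:36332029-36332278, plus strand: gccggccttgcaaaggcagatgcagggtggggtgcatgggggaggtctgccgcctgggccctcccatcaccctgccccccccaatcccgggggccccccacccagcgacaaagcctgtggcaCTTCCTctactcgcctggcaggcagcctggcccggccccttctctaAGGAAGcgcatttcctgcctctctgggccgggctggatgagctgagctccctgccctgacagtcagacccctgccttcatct
Emcn promoter, chr2:228564289-228564538, plus strand: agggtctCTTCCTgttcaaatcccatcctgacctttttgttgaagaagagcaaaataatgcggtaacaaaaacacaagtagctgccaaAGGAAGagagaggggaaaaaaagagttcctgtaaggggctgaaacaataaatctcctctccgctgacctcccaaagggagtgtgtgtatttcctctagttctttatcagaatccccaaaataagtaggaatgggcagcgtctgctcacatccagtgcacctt
Nos3 promoter, chr4:11706582-11706831, minus strand: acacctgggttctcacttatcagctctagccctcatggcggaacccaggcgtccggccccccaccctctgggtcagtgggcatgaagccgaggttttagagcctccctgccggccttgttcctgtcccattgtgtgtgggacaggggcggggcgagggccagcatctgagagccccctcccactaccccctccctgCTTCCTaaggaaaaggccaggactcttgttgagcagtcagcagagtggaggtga
Of the 45 members, 26 had an entry in the promoter table. AGGAAG on either strand was found in 9 of 19 endothelial promoters (47.4%) and in 1 of 5 barrier promoters, that of Abcg2, beside 29.5% of 33465 rat promoters of the same length. The 9 were those of Tie1, Flt1, Eng, Erg, Foxq1, Hhex, Emcn, Plvap and Nos3. The form CGGAAG on either strand, which differs from AGGAAG only in its first letter, was found in 0 of the 26 and in 13.9% of all promoters. A match is a run of letters in this window and no evidence of binding.

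Receptors and ligands of the vessel wall fell together. In the value used for each gene, all 7 were called lower, with no overlap between populations. Tie1, an orphan receptor kinase of endothelial cells, had ratios of 0.234, 0.184, 0.114 and 0.282 in O4+ cells and of 1.23, 1.19, 1.06, 1.22 and 1 in A2B5+ cells. Every O4+ value lay far below the lowest A2B5+ value, with a difference of -2.56 ± 0.23 (SE; 5.89-fold lower; adjusted p = 2.9e-05, limma). Tek, the receptor of the angiopoietins, had ratios of 0.179, 0.442, 0.275 and 0.299 in O4+ cells and of 1.38, 1.52, 1.68, 1.38 and 1 in A2B5+ cells, and was 4.83-fold lower (adjusted p = 8.7e-05, limma). Angpt2, the angiopoietin that endothelial cells release and that antagonises Tek signalling in remodelling vessels, spread widest. Its ratios were 0.256, 0.599, 0.0537 and 0.285 in O4+ cells and 2.77, 3.33, 1, 1.31 and 1.18 in A2B5+ cells. A2B5+ replicates 1 and 2 stood above the other A2B5+ arrays, O4+ replicate 3 was the lowest, and the difference was -2.95 ± 0.64 (adjusted p = 0.0046, limma), or -2.27 without that array.

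The VEGF receptors were lower on some probe sets and flat on others. Kdr, the main signalling VEGF receptor of endothelial cells, had ratios of 0.234, 0.278, 0.18 and 0.496 in O4+ cells and of 1.34, 1.19, 1, 1.102 and 1.03 in A2B5+ cells on type A, a difference of -2.03 ± 0.26 (adjusted p = 2.0e-04, limma). A second Kdr probe set on type B stayed between 0.999 and 1.07 in O4+ cells and between 0.975 and 1.015 in A2B5+ cells. Its residual SD was 0.028, below the median of low probe sets, and it did not pass the test (0.06, 95% interval -0.09 to 0.21). Flt1, a VEGF receptor that also acts as a trap for the ligand, differed by -2.54 (95% interval -3.04 to -2.04), -0.82 (-1.57 to -0.06) and 0.19 (-0.05 to 0.43) on its 3 probe sets. The first of these passed the test on its own, and the mean of all 3 was -1.06 ± 0.18 (adjusted p = 0.0010, limma). On the second the populations overlapped, with O4+ replicate 2 at 1.35 and A2B5+ replicate 3 at 0.939. On the third every O4+ ratio (1.083 to 1.099) lay above every A2B5+ ratio (0.916 to 1). Eng, a TGF-beta co-receptor of endothelial cells, and Ramp2, the adrenomedullin receptor subunit needed for vessel integrity, differed by -1.70 ± 0.27 and -1.98 ± 0.32 (adjusted p = 8.1e-04 and 9.2e-04, limma). Among the O4+ arrays, replicate 2 had the highest ratio of both genes, 0.666 for Eng and 0.708 for Ramp2.

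**Figure D2:**
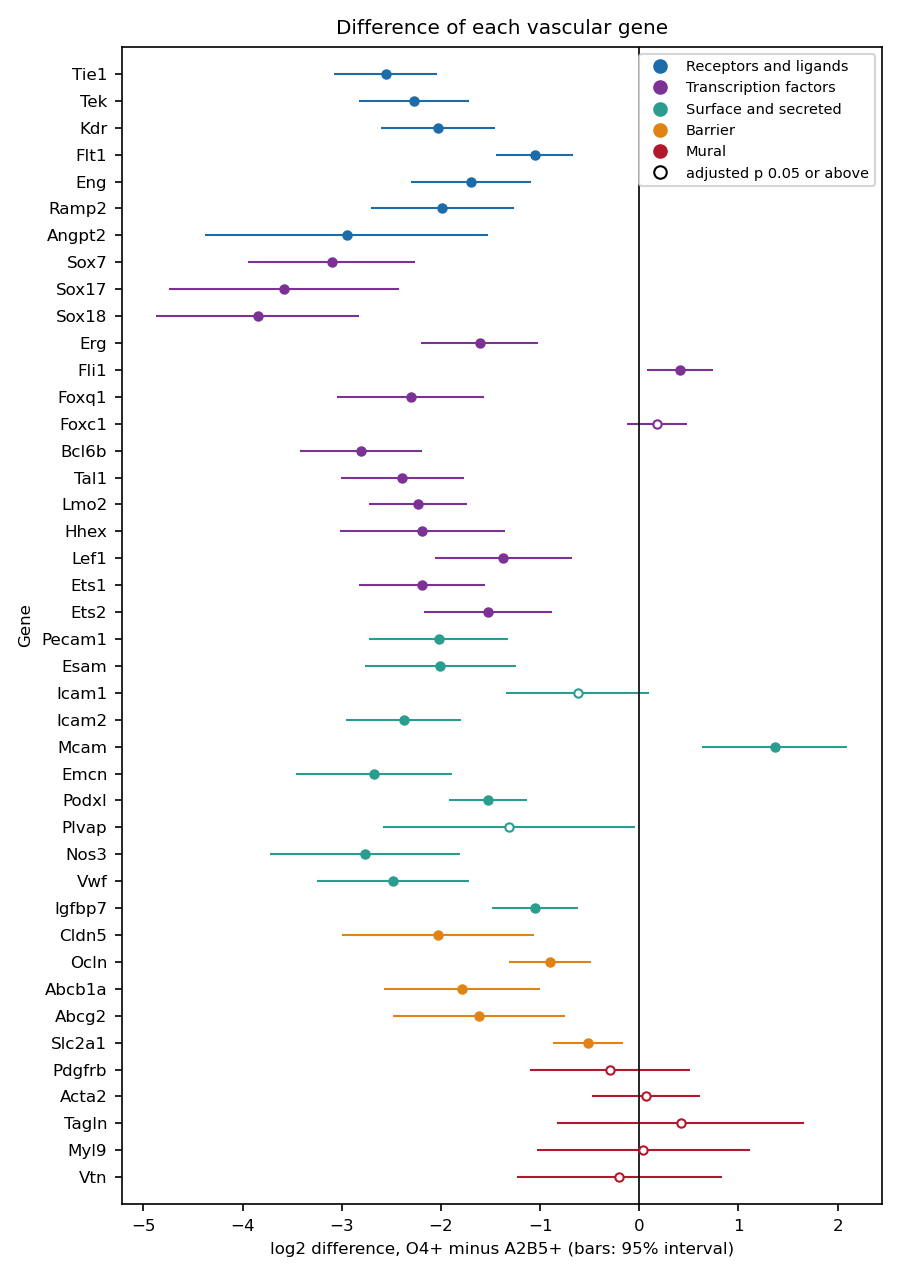
Log2 difference, O4+ minus A2B5+, of each of the 42 genes (points) with its 95% interval from limma (bars), coloured by role, filled where the adjusted p was under 0.05. The SoxF genes Sox18, Sox17 and Sox7 lie farthest left, Mcam lies to the right at 1.37, and the mural intervals all cross 0.

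The 3 largest falls among the members were of transcription factors. Of 14, 12 were called lower, and Fli1 was called higher by the array type that stands for it. The SoxF factors, which specify endothelial and arterial identity, led. Sox18 had ratios of 0.146, 0.239, 0.209 and 0.089 in O4+ cells and of 4.38, 4.18, 1.95, 1.80 and 1 in A2B5+ cells, 14.4-fold lower (difference -3.85 ± 0.46, adjusted p = 1.4e-04, limma). Sox17 had ratios of 0.0313, 0.274, 0.128 and 0.119 in O4+ cells and of 1.17, 1.99, 1.47, 1 and 1.00 in A2B5+ cells, a difference of -3.58 ± 0.52 (adjusted p = 4.6e-04, limma), or -2.99 without O4+ replicate 1. Its other probe sets, 1 on each type, were not tested. They had ratios of 0.492 to 0.535 in O4+ cells and of 0.383 to 0.462 in A2B5+ cells on type A, and of 0.424 to 0.441 in O4+ cells and of 0.404 to 0.426 in A2B5+ cells on type B. Sox7 had ratios of 0.132, 0.25, 0.123 and 0.242 in O4+ cells and of 2.61, 2.59, 1, 1 and 1.204 in A2B5+ cells, 8.59-fold lower (adjusted p = 1.6e-04, limma). For Sox18 and Sox7, A2B5+ replicates 1 and 2 were the highest, and the populations did not overlap on the tested probe set of any of the 3 SoxF genes.

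Bcl6b, a repressor enriched in endothelial cells, was read by 4 probe sets of type B, which all fell, with differences of -3.19, -3.08, -2.46 and -2.47. The factors shared with blood cell development fell as well. Tal1, a helix-loop-helix factor of blood and endothelial precursors, differed by -2.39 ± 0.28, its partner Lmo2 by -2.23 ± 0.22, and Hhex, a homeobox factor of early blood and endothelial cells, by -2.19 ± 0.37 (adjusted p = 1.2e-04, 4.7e-05 and 0.0012, limma). A type B probe set of Tal1 was flat, between 0.968 and 1.02 in O4+ cells and between 0.987 and 1.196 in A2B5+ cells. With type B used before A, Tal1 lost its call (-0.055, adjusted p = 0.68, limma). Microglia and blood cells also use some of these factors. Of 15 tested microglia markers 14 were lower and 0 higher, but for 12 of the 15 the populations overlapped. The count of lower markers was 9 without O4+ replicate 1, 3 or 4 or without A2B5+ replicate 2, 4 or 5. The mean log2 ratio of the 14 microglia genes on type A ranged from -1.34 to 0.08 in O4+ arrays and from -0.03 to 0.72 in A2B5+ arrays. The part of other cell types in the fall of these factors was not tested.

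Among the Ets factors, which bind the enhancers of many endothelial genes, Erg, Ets1 and Ets2 differed by -1.61 ± 0.26, -2.19 ± 0.28 and -1.52 ± 0.29 (adjusted p = 9.8e-04, 2.4e-04 and 0.0023, limma). On type B Erg had a larger difference of -3.15, with ratios of 0.195 to 0.339 in O4+ cells and of 1 to 3.40 in A2B5+ cells. Fli1 gave opposite signs on its 2 probe sets. On type A its ratios were 1.07, 1.61, 1.096 and 1.12 in O4+ cells and 0.832, 0.823, 0.93, 0.972 and 1 in A2B5+ cells, a difference of 0.41 ± 0.15 (adjusted p = 0.046, limma). On type B they were 0.214, 0.268, 0.293 and 0.561 in O4+ cells and 1.602, 1.92, 1, 1.05 and 1.39 in A2B5+ cells, a difference of -2.12 (adjusted p = 0.0013, limma on the probe sets of type B). The type A probe set had a residual SD of 0.15 and a difference close to the 0.30 of low probe sets, and its call ended when arrays were centred on their medians (0.24, adjusted p = 0.17, limma). The call also ended without any 1 of O4+ replicates 1 to 4 or A2B5+ replicates 1 to 4 (0.27 to 0.46). A direction for Fli1 over both probe sets is therefore not given.

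Foxq1, a forkhead factor enriched in brain endothelium, fell on both types, with differences of -2.30 ± 0.33 on type A and -3.49 on type B. Lef1, a nuclear partner of beta-catenin in the Wnt pathway that induces barrier properties, differed by -1.37 ± 0.31 on type A and -1.81 on type B (adjusted p = 0.0057 for the type A value, limma). Foxc1, a forkhead factor of mural and meningeal cells as well as endothelium, did not pass the test on either type, with differences of 0.18 (95% interval -0.12 to 0.48) and 0.24 (-0.12 to 0.60).

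**Figure D3:**
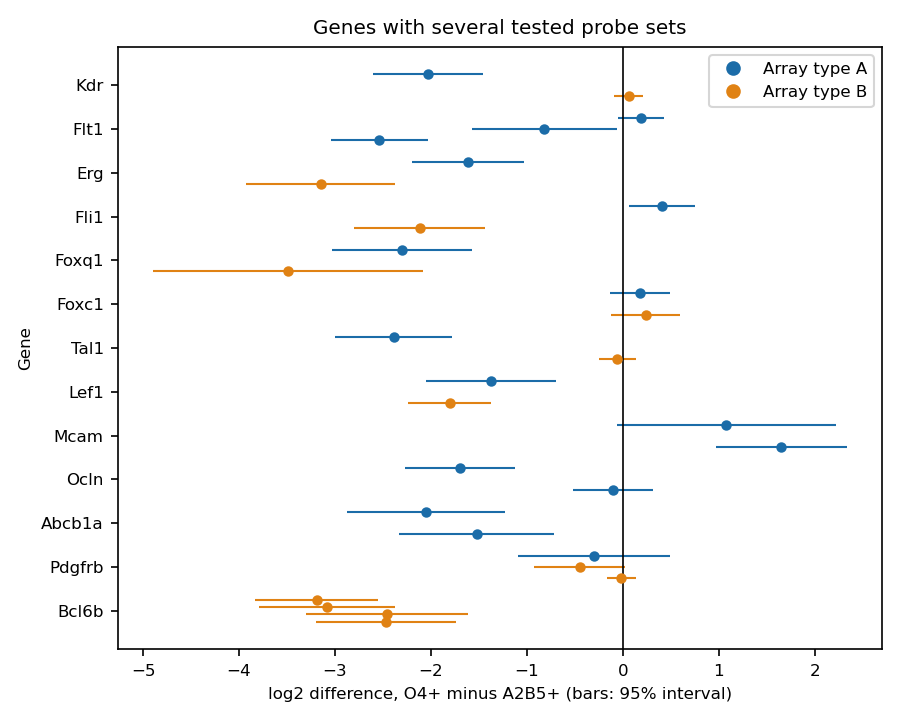
Log2 difference, O4+ minus A2B5+, with 95% intervals, of each tested probe set (points) for the 13 members with several, coloured by array type. Probe sets of Bcl6b, Foxq1, Erg, Lef1 and Abcb1a all lie left of 0, while those of Kdr, Flt1, Tal1 and Ocln include some near 0 and those of Fli1 lie on both sides.

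Surface and secreted proteins fell with 3 exceptions. Of 11 tested, 8 were lower, Mcam was higher, and Icam1 and Plvap did not pass the test. Nos3, the endothelial nitric oxide synthase, had ratios of 0.392, 0.254, 0.516 and 0.572 in O4+ cells and of 3.21, 4.97, 3.24, 3.42 and 1 in A2B5+ cells, 6.81-fold lower (adjusted p = 6.8e-04, limma). Emcn, the endothelial sialomucin endomucin, had ratios of 0.235, 0.451, 0.135 and 0.232 in O4+ cells and of 1.73, 2.59, 1, 1.44 and 1.31 in A2B5+ cells, 6.38-fold lower (adjusted p = 2.6e-04, limma). Vwf, the clotting protein stored in endothelial granules, had ratios of 0.198, 0.488, 0.164 and 0.428 in O4+ cells and of 1.81, 1.87, 1.73, 1.81 and 1 in A2B5+ cells, 5.58-fold lower (adjusted p = 3.6e-04, limma). The populations did not overlap for these 3 genes, and for Nos3 and Vwf A2B5+ replicate 5 lay well below the other A2B5+ arrays. Icam2, an adhesion molecule of resting endothelium, had ratios of 0.218, 0.409, 0.147 and 0.226 in O4+ cells and of 1.49, 1.27, 1, 1.07 and 1.29 in A2B5+ cells, 5.19-fold lower (adjusted p = 9.0e-05, limma). An untested Icam2 probe set ran the other way, at 0.801 to 0.857 in O4+ cells and 0.668 to 0.775 in A2B5+ cells, and with no filter the difference of Icam2 was -1.11 in place of -2.38. Pecam1 and Esam, adhesion molecules of endothelial junctions, Podxl, an anionic sialomucin of the luminal face, and Igfbp7, a secreted protein of vessel walls, were 4.07-fold, 4.01-fold, 2.88-fold and 2.07-fold lower. Each of these 4 had every O4+ ratio below every A2B5+ ratio on its tested probe set. For Podxl, 2 untested probe sets of low ratio were higher in O4+ cells (one at 0.481 to 0.528 in O4+ cells and 0.372 to 0.450 in A2B5+ cells), and with no filter its difference was -0.32 in place of -1.53.

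Mcam, an adhesion molecule of endothelial and mural cells also known as CD146, rose. On the probe set called on its own, its ratios were 2.51, 1.59, 1.41 and 2.26 in O4+ cells and 0.702, 1, 0.464, 0.709 and 0.336 in A2B5+ cells. A further probe set had 1.08, 1.65, 1.08 and 8.25 in O4+ cells and 0.861 to 1 in A2B5+ cells, so that O4+ replicate 4 stood far above the rest. The mean of both differed by 1.37 ± 0.33 (2.58-fold higher, adjusted p = 0.0079, limma). The second probe set did not pass the test on its own (1.08, adjusted p = 0.10, limma). In the alternatives that kept the mean of both, the difference lay between 0.98 and 1.59. Icam1, an adhesion molecule induced by inflammation, differed by -0.62 (95% interval -1.34 to 0.10, adjusted p = 0.14, limma). Plvap, a protein of fenestrated vessels that is low once the brain barrier has formed, differed by -1.31 (95% interval -2.59 to -0.04, adjusted p = 0.083, limma). Its ratios were 0.87, 1.46, 0.642 and 0.725 in O4+ cells and 3.35, 3.17, 0.781, 1 and 5.94 in A2B5+ cells. A2B5+ replicates 1, 2 and 5 were high, and replicates 3 and 4 lay within the O4+ range. Without A2B5+ replicate 3 both genes were called, at -0.83 and -1.68 (adjusted p = 0.048 and 0.026, limma). Plvap was also called without A2B5+ replicate 4 (-1.60, adjusted p = 0.047, limma).

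Barrier genes fell as well, 4 of the 5 without overlap. Cldn5, the main claudin of brain endothelial tight junctions, had ratios of 0.253, 0.769, 0.134 and 0.502 in O4+ cells and of 1.73, 1.37, 1.42, 1.497 and 1 in A2B5+ cells, 4.08-fold lower (difference -2.03 ± 0.44, adjusted p = 0.0045, limma). Abcb1a, a gene of the efflux pump P-glycoprotein, had on its first probe set ratios of 0.223, 0.854, 0.302 and 0.446 in O4+ cells and of 2.17, 2.19, 1.76, 1.49 and 1 in A2B5+ cells. O4+ replicate 2 was the highest O4+ array for both genes, and over its 2 probe sets Abcb1a was 3.45-fold lower (adjusted p = 0.0028, limma). On the second probe set O4+ replicate 2, at 1, overlapped A2B5+ replicate 5, at 0.877. Abcb1b, a close relative, shares 1 further probe set with Abcb1a, which was not used here.

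Abcg2, an efflux pump for drugs and urate, had ratios of 0.301, 0.727, 0.275 and 0.845 in O4+ cells and of 1, 2.36, 1.47, 1.75 and 1.07 in A2B5+ cells on type B, 3.06-fold lower (adjusted p = 0.0080, limma). Ocln, the tight junction protein occludin, fell on 1 probe set (0.491, 0.599, 0.255 and 0.349 in O4+ cells, 1, 1.62, 1.16, 1.21 and 1.65 in A2B5+ cells) and differed by -0.10 on the other, where the populations overlapped. The mean of both was -0.90 ± 0.18 (adjusted p = 0.0035, limma). Slc2a1, the glucose transporter of the barrier that astrocytes also carry, had the smallest difference, -0.52 ± 0.16 (1.43-fold lower, adjusted p = 0.024, limma). Its ratios were 0.876, 0.92, 0.817 and 1 in O4+ cells and 1.36, 1.32, 1.53, 1.41 and 0.922 in A2B5+ cells. The populations overlapped through A2B5+ replicate 5, and the call ended without O4+ replicate 1 or 3 or A2B5+ replicate 3 or 4 (differences -0.50, -0.47, -0.46 and -0.48).

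Mural genes varied within both populations and none passed the test. The limma fit called 0 of 5, and at an unadjusted p under 0.05 the count was 0 too. Pdgfrb, the receptor through which endothelial PDGF-B recruits pericytes, had ratios of 1.15, 1.03, 0.417 and 1 in O4+ cells and of 0.641, 1.49, 0.98, 1.61 and 0.774 in A2B5+ cells (difference -0.30, 95% interval -1.11 to 0.51). Acta2, smooth muscle alpha-actin, had ratios of 1.15, 1.15, 0.669 and 1.04 in O4+ cells and of 0.782, 1.49, 0.69, 0.903 and 1 in A2B5+ cells (0.07, -0.48 to 0.61). In both genes the populations overlapped, and O4+ replicate 3 was the lowest of all 9 arrays.

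The remaining mural genes overlapped as well. On type B, 2 further probe sets of Pdgfrb differed by -0.45 and -0.01 and did not pass the test. Tagln, the smooth muscle actin-binding protein transgelin, had ratios of 1.74, 2.50, 0.362 and 1 in O4+ cells and of 0.79, 1.62, 0.472, 0.546 and 1.24 in A2B5+ cells (0.42, 95% interval -0.83 to 1.66). Myl9, a myosin regulatory light chain of smooth muscle, had ratios of 1.38, 1.81, 0.316 and 1 in O4+ cells and of 0.682, 1.59, 0.641, 0.783 and 1.19 in A2B5+ cells (0.04, -1.03 to 1.11). Vtn, the matrix protein vitronectin, which brain pericytes express, had ratios of 1.08, 1.36, 0.312 and 0.853 in O4+ cells and of 0.408, 1.26, 0.898, 1.36 and 1 in A2B5+ cells (-0.20, -1.23 to 0.83). O4+ replicate 3 was again the lowest of all arrays for these 3 genes. Without it Tagln and Myl9 differed by 0.96 and 0.57, and Pdgfrb and Vtn turned to 0.04 and 0.25, with no call (adjusted p of 0.12 to 0.93 over the 5 genes, limma). The 3 probe sets shared by Acta2 and the cardiac actin gene were not used.

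**Figure D4:**
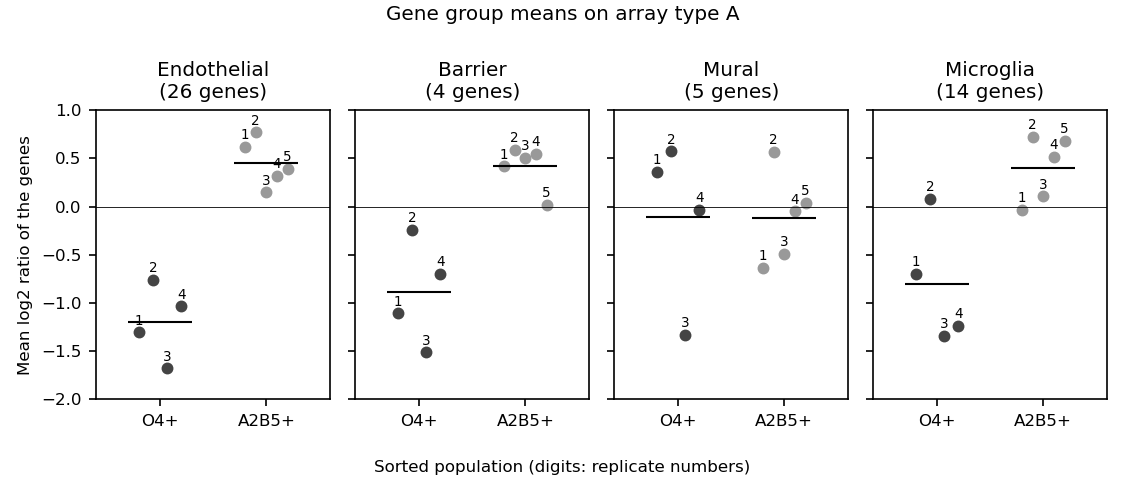
Mean log2 ratio on type A arrays of 26 endothelial, 4 barrier, 5 mural and 14 microglia genes (panels) in O4+ and A2B5+ replicates (points with their numbers, lines at the mean). Endothelial and barrier means do not overlap between the populations, while mural means span -1.33 to 0.57 in O4+ cells and -0.64 to 0.57 in A2B5+ cells.

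Single arrays stood out across genes of the vascular groups. On type A the mean log2 ratio of 26 endothelial genes was -1.30, -0.76, -1.68 and -1.03 in O4+ replicates 1 to 4 and 0.62, 0.77, 0.15, 0.32 and 0.39 in A2B5+ replicates 1 to 5. O4+ replicate 2 had the highest O4+ value in 17 of these 26 genes and replicate 3 the lowest in 16. In the mural genes replicate 3 was lowest in 5 of 5, with a group mean of -1.33 against -0.03 to 0.57 in the other O4+ arrays. A2B5+ replicate 2 had the highest A2B5+ value in 13 of 26 endothelial and 3 of 5 mural genes. The mean of 14 microglia genes was also highest in O4+ replicate 2 and lowest in O4+ replicate 3, at 0.08 and -1.34. On type A, replicate 2 was the O4+ array with the high control probe sets as well. On type B, O4+ replicate 2 was highest in 5 of 6 endothelial genes and replicate 4 in 1, and replicate 1 was lowest in 4. O4+ numbers do not match between types, and type A replicate 2 correlated best with type B replicate 4. The part of these arrays was not tested, but 32 members were called lower without O4+ replicate 2 and 31 without O4+ replicate 3.

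Other vascular genes were grouped by function. Of 106 tested, 59 were lower and 7 higher in O4+ cells, beside 17.8% and 28.8% of all genes. Their median difference was -0.76, and 2 were higher when arrays were centred. The count of higher genes was 3 or 4 without O4+ replicate 1, 2 or 4 or without A2B5+ replicate 1, 2 or 3. In angiogenic signalling, 19 of 27 were lower and 1 higher. The largest falls were Ptprb, the phosphatase that restrains Tek (-2.80), Aplnr, the apelin receptor (-2.78), Egfl7, an endothelial secreted protein (-2.56), and Mef2c, a transcription factor with many other sites of expression (-1.89). The ligands Vegfa, Vegfb, Pgf and Angpt1, most of which other cells supply to the vessel, did not pass the test (-0.11, 0.22, 0.10 and 0.06). Further ligands of this list were called lower, namely Cxcl12 (-0.995), Dll4 (-0.895), Jag1 (-0.826), Apln (-0.78) and Vegfc (-0.58). The 1 higher, Smad6 (0.55), was no longer called after centring or with type B before A. It also lost its call without O4+ replicate 2, 3 or 4 or A2B5+ replicate 1, 2, 3 or 4.

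Among other endothelial genes, 19 of 24 were lower, led by Cyyr1 (-3.09), the adhesion receptor Adgrl4 (-2.41), the C-type lectin Clec14a (-2.16) and Rasip1, needed for vessel lumens (-2.11). In the further barrier list, 16 of 26 were lower and 1 higher. Its largest falls were Slco1c1, a thyroid hormone transporter (-2.49), Lsr, a protein of tricellular junctions (-2.25), the amino acid transporter Slc38a3 (-1.71) and the junctional molecule F11r (-1.51). Mfsd2a, the barrier's transporter of omega-3 lipids, rose by 1.15 ± 0.25 with no overlap (adjusted p = 0.0046, limma), and kept its call after centring. In the basement membrane list, 4 of 10 were lower, namely Sparc (-2.08), the collagen IV chains Col4a1 and Col4a2 (-1.21 and -1.18) and Lama5 (-1.07), and Nid1, the linker protein nidogen, was higher (0.66).

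The further mural list resembled the 5 mural members. Of 19 genes, 1 was lower and 4 higher, with a median difference of 0.21. Of all genes, 17.8% were called lower and 28.8% higher, with a median difference of 0.14. After centring, 1 of the 19 was lower and 0 higher. Without O4+ replicate 1, 2 or 4 or A2B5+ replicate 1, 2, 3 or 4, only 1 or 2 were higher, and without O4+ replicate 3 or A2B5+ replicate 3 or 4 none was lower. The 1 lower was Cspg4 (-0.95), the NG2 proteoglycan, which oligodendrocyte progenitors carry as well as pericytes. The 4 higher were Tpm1 (0.62), Des (0.43), Cnn1 (0.43) and Notch3 (0.36), genes of the contractile apparatus and of mural signalling. Rgs5, Kcnj8 and Abcc9, markers of pericytes, had differences of -0.16, -0.03 and -0.71 and did not pass the test. Of 13 genes of fibroblasts and meninges, 3 were lower (Fbln1, -1.54, Dcn, -1.32, and Gjb2, -1.30) and 1 was higher (Dpt, 0.53). After centring 0 were higher. The collagens Col1a1, Col1a2 and Col3a1 differed by 0.24, -0.04 and 0.98 without a call, and Col3a1 was called higher without O4+ replicate 3. Without O4+ replicate 1 the count of lower genes in this list was 1, and without O4+ replicate 3 the count of higher genes was 2. Of 6 blood cell genes 2 were lower and 2 higher, or 3 and 0 after centring. The lower count was 0 or 1 without A2B5+ replicate 1, 2 or 3, and the higher count was 1 without these or without O4+ replicate 2 or 4. As a check of the labels, 11 of 11 myelin and oligodendrocyte genes were higher in O4+ cells, with a median difference of 5.17, 7 of 12 astrocyte genes were lower and none higher, and of 13 neuron genes 7 were lower and 4 higher. The astrocyte count was 4 without O4+ replicate 3. The lower neuron count was 3 or 4 without O4+ replicate 1 or 4 or A2B5+ replicate 3 or 4, and the higher one was 2 without O4+ replicate 1 or 4 or A2B5+ replicate 2 or 3.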

How the data were processed

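Expression was measured on 2 Affymetrix rat array types, in 18 arrays. The authors deposited linear ratios. The submitters' processing notes name GCRMA, with no version. The step to ratios was not given in the sources used here. A row's median was exactly 1 for 12995 of 15923 probe sets on type A and 11050 of 15333 on type B. The log2 of each ratio was used. Probe sets with a ratio of 1 or more on 4 or more of the 9 arrays of a type were tested, which left out 5 of 64 member probe sets but no member gene. Names come from the platform annotation: 12789 probe sets on type A and 7570 on type B had 1 symbol, 312 and 100 had several and 2822 and 7663 had none. Probe sets with several symbols were not used. A gene was the mean of its tested probe sets, with type A used before type B (35 and 7 members). O4+ and A2B5+ cells were compared by the two-sided moderated test of limma 3.58.1 (R 4.3.3), fitted on all 11982 genes, and per array type for single probe sets. The method was tested on simulated data. Errors are standard errors of the fit, with n = 4 and 5 unless said otherwise, and the number of arrays limits the precision.

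The members, lists and tests were chosen with earlier results of these data known. Values per array are given for up to 4 called members of a role without overlap, by size of difference, and for all barrier and mural members. Those of Mcam, Fli1 and Plvap, and second probe sets, were picked after their values were seen. Of the other vascular lists and the list of fibroblasts and meninges, the largest called falls and rises are named. Microglia, blood, astrocyte, neuron and myelin lists are given only as counts, medians or means, without named genes. Genes without a call, and the angiogenic ligands called lower, were picked afterwards. Replicate numbers of O4+ arrays did not match between types: over 100 shared probe sets, deviations from the population mean correlated best with O4+ replicates 3, 4, 1 and 2 of type B for replicates 1 to 4 of type A (r of 0.80 to 0.94), while A2B5+ numbers matched (0.78 to 0.89). The main test of a gene uses 1 array type, so it joins no arrays across types. The alternative that averages both types joins arrays by number, which for O4+ cells may be different RNA, in the 8 members measured on both.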

Additional observations from a re-analysis of the deposited data

Results flagged for a closer look

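In 7 of the 84 sets of O4+ or A2B5+ values, 1 array lay farther from the others than Dixon's test at 95% allows, where chance gives about 1 in 20. Values are log2 ratios. In A2B5+ cells replicate 5 on type A was the low array for Nos3 (0 against 1.68 to 2.31), Vwf (0 against 0.79 to 0.90) and Slc2a1 (-0.12 against 0.40 to 0.61). In O4+ cells on type A, replicate 3 was low for Pdgfrb (-1.26 against 0 to 0.21), replicate 1 was low for Pecam1 (-1.59 against -1.22 to -1.16), and replicate 2 was high for Fli1 (0.68 against 0.10 to 0.16). On type B, O4+ replicate 1 was low for Lmo2 (-2.54 against -1.76 to -1.60).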

How the results depend on the processing

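The number of members called lower was 31 to 33 over 9 fits that each left out 1 replicate number and 31 to 33 over 11 other alternatives. With endothelial genes alone these ranges were 27 to 29 and 26 to 28, with barrier genes 4 to 5 and 5 to 5, and with mural genes 0 throughout. The number called higher was 1 in place of 2 with arrays centred, with quantile normalization, with both array types averaged, with type B before A, with probe sets tested singly, with array weights, with the replicate block and without flat probe sets (residual SD under 0.1, an alternative chosen after seeing the data). It was 3 with no filter and 1 to 2 with a replicate left out. In each case with 1, Fli1 lost its call or turned. Other vascular genes called higher numbered 2 with arrays centred, 2 with quantile normalization, 13 with no filter, and 3 to 10 with a replicate left out, in place of 7. The median difference of all genes was 0.14, and 0.03 with arrays centred.

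With type B first the direction of Kdr turned (0.062) and its call ended, and Tal1 kept its direction but lost its call (-0.055). Sox17 turned with no filter, where a type A probe set of low ratio stands for it. It was then called higher (0.28, adjusted p = 0.028, limma). Fli1 turned with both types averaged (-0.85), type B first (-2.12) or probe sets tested singly (-2.12). Acta2 and Myl9, which were never called, turned to -0.10 and -0.13 with arrays centred and to -0.077 and -0.081 with quantile normalization. With a replicate left out, Pdgfrb ranged from -0.47 to 0.037, Acta2 from -0.045 to 0.25, Myl9 from -0.27 to 0.57 and Vtn from -0.49 to 0.25. The cause of these turns was not tested, apart from the choice of probe set named.

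The fit with the replicate number as a block used replicates 1 to 4 of both populations and called 33 members lower and 1 higher. Same-numbered arrays deviated together with correlations of -0.01 to 0.37 on type A and -0.20 to 0.15 on type B. The best match was the array of the same number only for numbers 2 and 3 of type A. Not every pair exceeded 0.1 and the labels leave shared litters unsettled, so the block was kept as an alternative. Plvap was called with the block (-0.95, adjusted p = 0.035, limma), and Fli1 was not (0.44, adjusted p = 0.076). O4+ numbers do not match across types, so leaving out a number may remove different RNA on each type.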
